A study of Mus musculus with 121 samples.

Results

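The genes described here are the nuclear-encoded members of the mitochondrial respiratory chain, taken from the table by their symbols. The rule takes Ndufa, Ndufb, Ndufc, Ndufs and Ndufv genes (complex I), Sdha to Sdhd (complex II), Uqcr genes (complex III), Cox4i1, Cox4i2 and the Cox5 to Cox8 genes (complex IV), and Atp5 genes (complex V, the ATP synthase). It found 83 of the 23946 genes of the table: 36 for complex I, 4 for complex II, 8 for complex III, 18 for complex IV and 17 for complex V. No measured value entered the choice. A few members are listed under a complex by name alone. Ndufa4 is now assigned to complex IV, Cox7a2l joins complexes into supercomplexes, and Atp5s and Atp5sl are related to assembly factors rather than subunits.

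The study asked how a mutation of Gfi1, a transcriptional repressor needed for neutrophil formation, bears on the states that granulocyte progenitors pass through. Single bone marrow cells of C57BL/6 mice were enriched on CD117 beads, sorted, captured on the Fluidigm C1 chip and sequenced. Every cell carries the genotype written Gfi1-R412X/- in one label and Gfi1-R412X-HTZ in another, and with no wild-type cells analysed here the effect of the mutation is not measured. There were 46 cells labelled CD11b+ GMP-P, where CD11b is a surface integrin of maturing myeloid cells, and 75 labelled GMP (granulocyte-monocyte progenitors). The sources used here give no age, sex or number of mice.

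The 46 CD11b+ GMP-P cells have a single run name, and the GMP cells carry 3 others: 13 cells have run names dated late July, and the 62 others share an undated name and are called the other GMP cells. The run name of CD11b+ GMP-P reads as a late July date too, so these cells and the 13 share a date that the 62 do not show. Population and run name therefore cannot be told apart. A deposited table names a state for each cell, which is used as written. CD11b+ GMP-P held 6 Mono, 13 Gran-2, 5 Myelo-1, 11 Myelo-2 and 7 Myelo-4 cells, the other GMP held 32 Mono, 11 MP, 9 Gran-1 and 5 cMoP cells, and late July GMP held 7 Myelo-2 cells. States with fewer cells in a run were not compared. States were named on these same cells, so a difference between states describes the annotation. No animal is named and each state in a run is 1 sample, so no p-value or standard error was computed. An SD below is the spread over single cells and no replicate error.

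The respiratory chain passes electrons from NADH and succinate to oxygen and pumps protons across the inner mitochondrial membrane. Complexes I and II feed in electrons, complex III passes them to cytochrome c, complex IV reduces oxygen, and complex V lets protons flow back and makes ATP. Complex II is also an enzyme of the citric acid cycle. Most subunits are encoded in the nucleus and imported, while a few core subunits of complexes I, III, IV and V are encoded by the mitochondrial genome and were not analysed here. Neutrophils are known for relying mainly on glycolysis and for holding few mitochondria, whereas their progenitors carry more.

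Promoters are shown for 5 members on which later values turn: the 3 genes of the ATP synthase c subunit, which are made from separate loci into the same mature protein, the most abundant member (Cox6a1) and the most abundant complex II member (Sdhd). The sequences are from RefSeq (mouse build GRCm38.p6), each 150 bases ending near the transcript start, and run 5′ to 3′ along the gene's strand, which is the minus strand for all 5. Capitals mark the core site CGCNTGCG of NRF1, a factor long tied to respiratory genes, in either orientation, and the core ETS site CCGGAAG in either orientation. The expression table was made on another build (mm9), so these places are not joined to its values.
Atp5g1 (chr11:96075632-96075781): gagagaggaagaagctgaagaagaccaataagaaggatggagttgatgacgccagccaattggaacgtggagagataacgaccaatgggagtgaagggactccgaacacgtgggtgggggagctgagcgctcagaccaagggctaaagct
Atp5g2 (chr15:102671048-102671197): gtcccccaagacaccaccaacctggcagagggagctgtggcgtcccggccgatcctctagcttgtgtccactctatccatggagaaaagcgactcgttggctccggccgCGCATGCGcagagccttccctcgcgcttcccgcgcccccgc
Atp5g3 (chr2:73911327-73911476): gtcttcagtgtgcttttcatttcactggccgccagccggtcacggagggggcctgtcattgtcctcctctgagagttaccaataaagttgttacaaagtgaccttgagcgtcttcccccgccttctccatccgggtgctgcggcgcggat
Cox6a1 (chr5:115348959-115349108): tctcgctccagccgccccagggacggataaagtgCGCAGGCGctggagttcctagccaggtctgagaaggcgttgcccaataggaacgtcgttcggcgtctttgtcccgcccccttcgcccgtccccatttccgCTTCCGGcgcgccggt
Sdhd (chr9:50603850-50603999): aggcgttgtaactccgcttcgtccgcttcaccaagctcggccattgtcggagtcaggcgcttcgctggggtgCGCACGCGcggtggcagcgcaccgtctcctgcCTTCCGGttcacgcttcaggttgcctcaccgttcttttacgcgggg

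Within the c subunit family, the printed Atp5g2 stretch holds an NRF1 core that reads the same on both strands, and the printed Atp5g1 and Atp5g3 stretches hold none, although the longer window of Atp5g3 described next holds 1. Promoter windows of 300 bases (250 before the start and 50 after it) were found for 69 of the 83 members. The NRF1 core stood on either strand in 26 of the 69 (37.7%), against 9.22% of the 27025 genes in RefSeq's promoter table and 22% of the 6495 with a window that were detected in at least 10% of cells. The core AAGATGGC of YY1, a factor with sites in many respiratory gene promoters, stood in 11 of 69 (15.9%), against 3.19% and 6.36%. The ETS core stood in 16 of 69 (23.2%), against 9.93% and 24.1%, so against the genes detected in these cells it was not more frequent. These are matches of letters, and an absent match says only that those letters are not in that window.

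Values are log2(TPM + 1), where TPM is transcript abundance scaled for transcript length and to 1 total per cell. Depth per cell is unknown, since TPM keeps no read number. A gene counts as detected where its TPM reached 1 in the cell. The cells differed strongly in how much was detected: the median number of genes was 4521 in the other GMP cells (1951 to 6153), 2870 in CD11b+ GMP-P (967 to 4738) and 2570 in late July GMP (1436 to 3824). The 20 most abundant genes, led by the granule and alarmin genes S100a8, S100a9 and Ngp, took medians of 11.5%, 32.9% and 52% of all TPM in the same order. Both measures moved with the members below, and their part in the results was not tested. The highest correlation between any 2 cells was 0.73, so no pair held near-identical values.

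In level, the members ranged widely within every complex. Of the 83 members, 77 were detected in at least 10% of all cells, as were 8499 genes of the table. Those 77 are called the kept members. The other 6 are tissue-restricted complex IV isoforms: Cox4i2 was detected in 6 cells, Cox6a2 and Cox7a1 in 1 cell each, and Cox7b2, Cox8b and Cox8c in no cell, which allows up to 2.48% of cells. The median of the mean levels was 6.33 for complex I, 5.40 for complex II, 7.38 for complex III, 7.75 for the 12 kept complex IV genes and 7.78 for complex V.

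Complex IV and small membrane subunits led. Cox6a1, a subunit of complex IV, had the highest mean over all cells at 10.06, followed by Cox4i1 (9.34), the regulatory subunit that binds ATP, and Ndufa4 (8.83). Atp5l, a membrane subunit that helps ATP synthase pair up, averaged 8.64, Cox6c 8.56 and Uqcrb, which binds ubiquinone in complex III, 8.54. Ndufa1 averaged 8.15 and led complex I after Ndufa4 and Ndufa3. The lowest kept members were Atp5s (0.80), Atp5sl (1.37), the testis-type isoform Cox6b2 (1.54) and Ndufs1 (2.41), the largest iron-sulfur subunit of complex I.

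Several catalytic or core subunits were among the low members of complexes I to III. Ndufv1, which binds NADH and the flavin of complex I, averaged 3.70. In complex II the membrane anchor Sdhd (6.21) was highest and the flavoprotein Sdha (4.45) lowest. In complex III the core protein Uqcrc2 (4.99) was lowest. Complex V did not share this: its catalytic beta subunit Atp5b averaged 8.01 and the alpha subunit Atp5a1 7.77, beside a complex median of 7.78. Level went with transcript length across the 77 kept members (Spearman rho −0.54, as a description). TPM is already divided by length, and the part of length in this order was not tested.

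**Figure D1:**
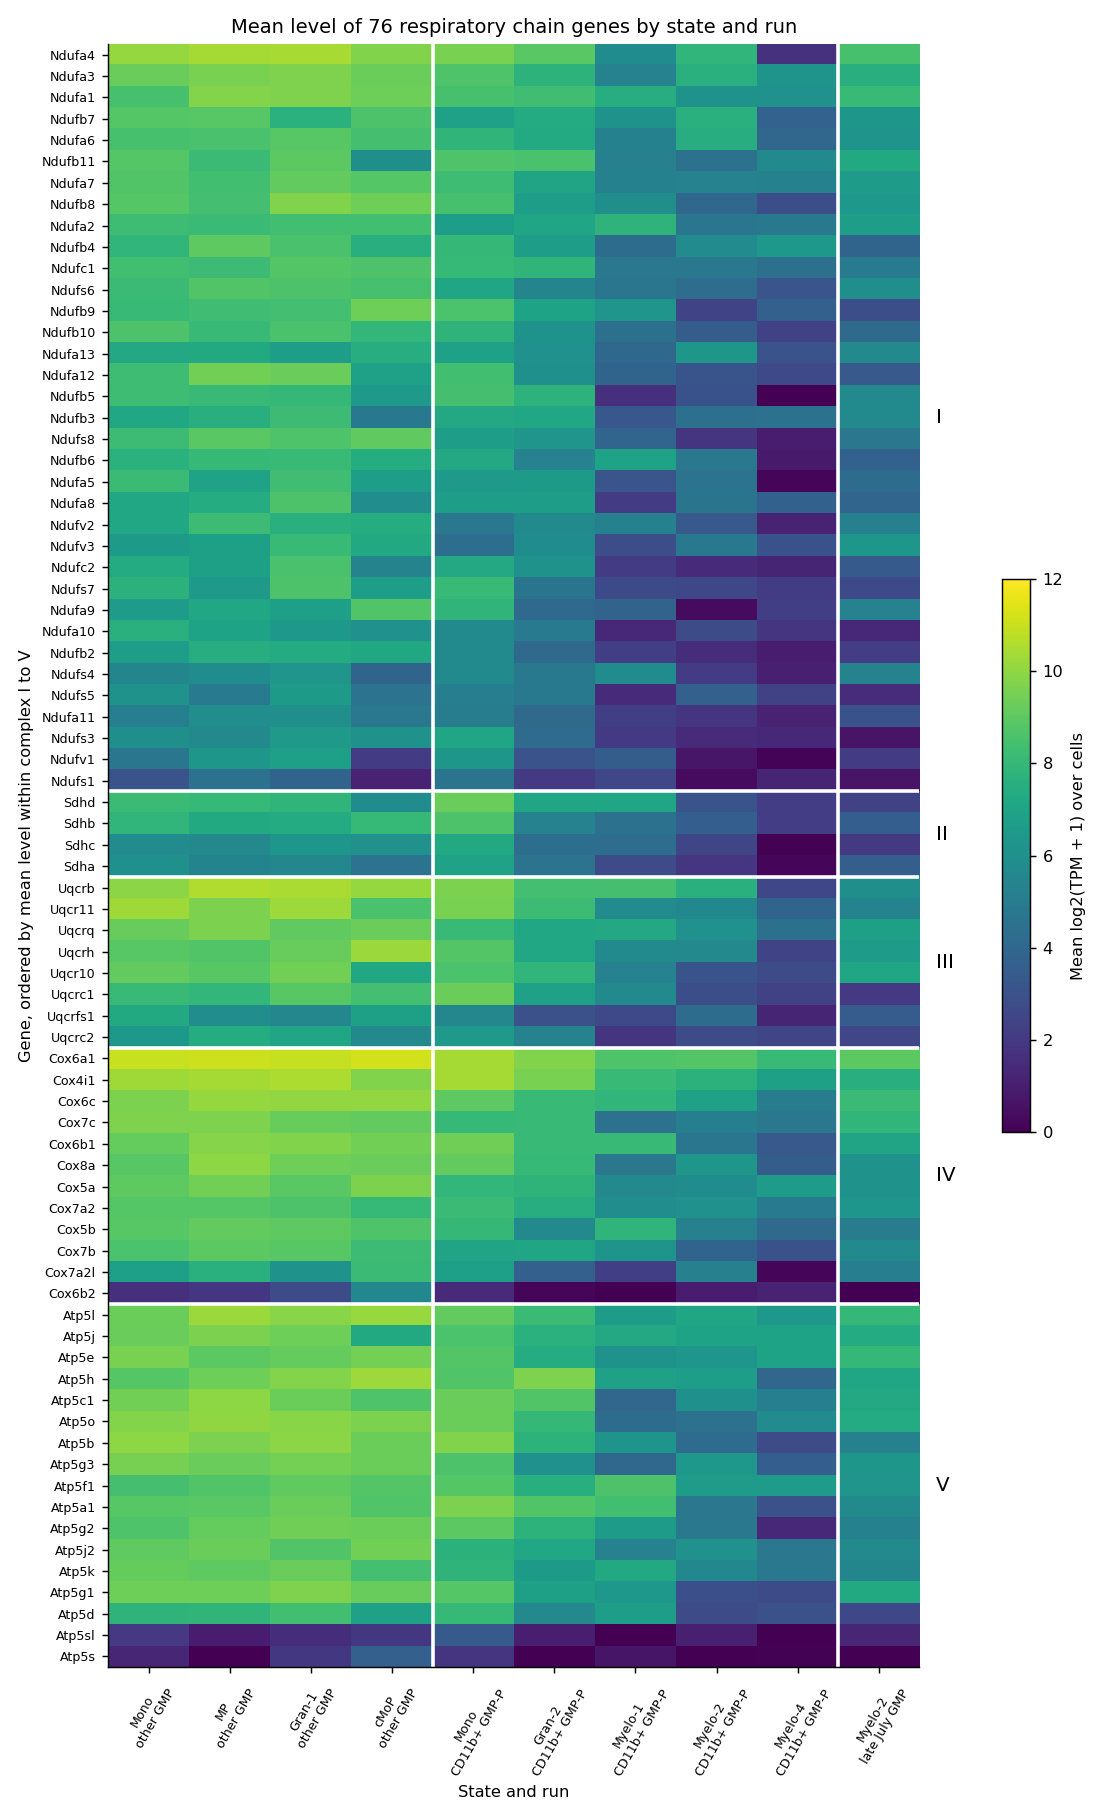
Mean log2(TPM + 1) of 76 of the 77 kept members (rows, grouped by complex, white lines between complexes and between runs) in the 10 states and runs with at least 5 cells (columns). The 4 states of the other GMP run are alike in shade, and the Myelo-4 column is darkest, which marks low levels; Ndufb5 is at 0 in all 7 Myelo-4 cells.

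The chain as a whole took its largest share of TPM in the other GMP cells and its smallest in Myelo-4. Summed over all 83 members, the median share per cell was 4.56% in the other GMP Mono cells (2.17 to 5.78), 4.25% in MP (3.58 to 6.22), 4.34% in Gran-1 (3.84 to 4.70) and 4.20% in cMoP (3.44 to 5.40). These 4 states overlapped throughout. In the CD11b+ GMP-P run it was 3.16% in Mono (2.40 to 3.74), 2.57% in Gran-2 (2.01 to 3.29), 2.27% in Myelo-1 (1.71 to 2.99), 1.17% in Myelo-2 (0.62 to 2.85) and 1.02% in Myelo-4 (0.47 to 1.47). Neighbours in that order overlapped, while no Myelo-4 cell reached the lowest Gran-2 or Myelo-1 cell. Myelo-2 of late July GMP had 1.46% (0.84 to 2.51).

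Other transcripts in the same total differed along with it, and their part in the order was not tested. The 20 most abundant genes had a median share of 13.5% in CD11b+ GMP-P Mono, 26.5% in Gran-2, 37.1% in Myelo-1, 52.5% in Myelo-2 and 58.5% in Myelo-4. With those 20 genes left out of each cell's total, the chain took 3.70% in Mono, 3.44% in Gran-2, 3.52% in Myelo-1, 2.43% in Myelo-2 and 2.49% in Myelo-4. Mono, Gran-2 and Myelo-1 then lay close together, Myelo-2 (1.33 to 4.22) and Myelo-4 (1.17 to 3.03) had the lower medians, and their cells overlapped those of Gran-2 (2.21 to 4.41). The other GMP states stayed between 4.62% (cMoP) and 5.16% (Mono).

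**Figure D2:**
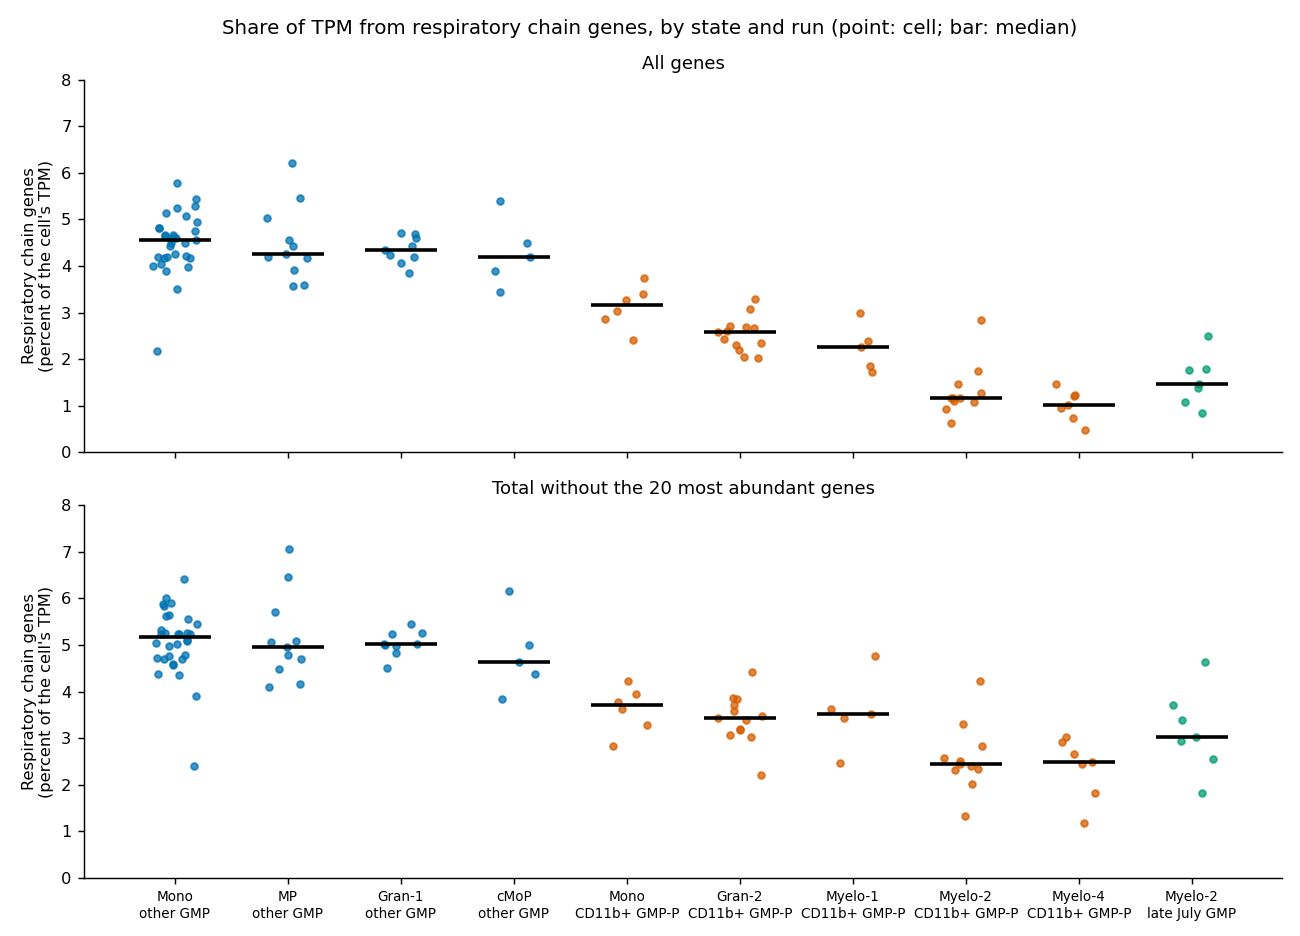
Share of each cell's TPM taken by the 83 members (percent, vertical axis) in the 10 states and runs with at least 5 cells, over all genes and with the 20 most abundant genes left out of the total. Points are cells and bars medians: Myelo-4 cells sit at 0.47% to 1.47% over all genes and at 1.17% to 3.03% without the 20 genes.

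By make-up, the median shares of complexes II and III were smaller in the 7 CD11b+ GMP-P Myelo-4 cells than in the other GMP cells, with overlapping cells. In the other GMP cells, complex I gave a median of 34.3% of the chain's TPM, complex V 26.5%, complex IV 23.2%, complex III 13.3% and complex II 2.48%. In Myelo-4, complex I gave 35.4%, complex V 32.8%, complex IV 23%, complex III 4.90% and complex II 0.013%. Complex III spanned 1.22% to 18.6% there, against 4.74% to 22.1% in the other GMP cells, and complex II 0% to 3.26%, against 0% to 8.47%. In the 3 late July Myelo-4 cells complex II gave 1.2%, 1.96% and 2.41%. Complex III took 0.114% of all TPM in the late July Myelo-4 cell where the chain took 1.36%. It took 0.247% where the chain took 1.03%, and 0.0764% where the chain took 1.59%. Complex II took a median of 0.154% of all TPM in CD11b+ GMP-P Mono, 0.081% in Gran-2 and 0.010% in Myelo-2.

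Fewer members were detected where fewer genes were. Of 83 members, a median of 73 were detected in an other GMP cell (31 to 76), 57.5 in a CD11b+ GMP-P cell (25 to 75) and 52 in a late July GMP cell (36 to 71). Within CD11b+ GMP-P the medians were 74 in Mono, 69 in Gran-2, 50 in Myelo-1, 51 in Myelo-2 and 37 in Myelo-4 (28 to 46). The median genes detected were 4434, 3760, 2504, 2261 and 1642 in the same order. In the Myelo-4 group, 6 of 7 cells had under 2000 genes, as did 5 of the 11 Myelo-2 cells.

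**Figure D3:**
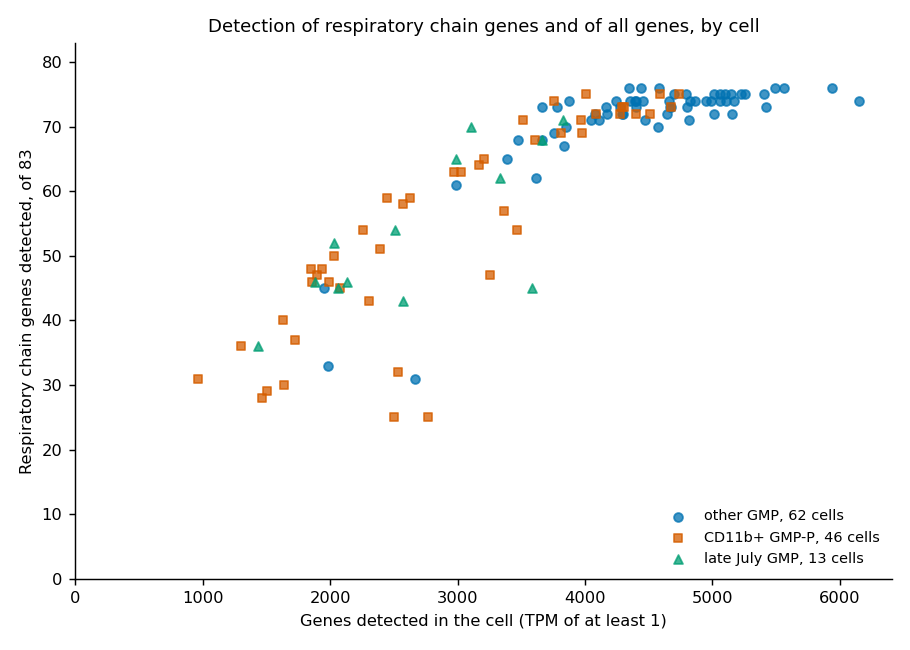
Number of the 83 members detected in a cell (vertical axis) against the number of all genes detected in it (horizontal axis), 1 point per cell, marked by run. Cells with more genes tend to have more members, in each run.

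Gran-2 was compared with Mono within CD11b+ GMP-P, which asks how the chain differs between the granulocytic and the monocytic cells of 1 run. Most members were lower in Gran-2, complex II the most and with all 4 subunits. The median difference of mean log2(TPM + 1) was −1.19 over the 77 kept members and −0.35 over all 8499 kept genes. Of the 77, 42 were lower by at least 1, against 31.6% of all kept genes, and 1 was higher by at least 1, against 12.1%. Members are well-detected genes, so the 1334 genes detected in at least 70% of cells are the closer background. Among the 68 members there, 34 (50%) were lower by at least 1, against 41.5% of the 1334, with medians of −1.03 and −0.77.

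By complex, the median Gran-2 minus Mono difference was −0.89 for complex I (16 of 36 lower by at least 1), −2.64 for II (4 of 4), −1.29 for III (6 of 8), −0.87 for IV (5 of 12) and −1.28 for V (11 of 17). Complexes I and IV were thus near the 1334 well-detected genes, of which 41.5% were lower by at least 1, with a median of −0.77. The lowest were Ndufa9 (−3.76), an accessory subunit near the quinone site, Ndufs7 (−3.45), which holds the last iron-sulfur cluster, and Sdhb (−3.34). The highest were Ndufv3 (1.51), Atp5h (0.93), a stalk subunit, and Ndufv2 (0.92). Means rest on fewer detecting cells as well as on lower values. Taken as the log2 ratio of mean TPM, the members' median was −0.34 and that of all kept genes 0.01.

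The Myelo states were compared with Gran-2 in the same run, as the states with the most granule transcripts. The members were lower in all 3, and most in Myelo-4. For Myelo-2 the median was −2.12 over the kept members and −0.70 over all kept genes, and 58 members were lower by at least 1 (39.6% of all kept genes) and 2 higher (4.49%). For Myelo-4 the median was −2.98 against −1.0, with 69 lower (50.1%) and 0 higher (4.6%). For Myelo-1, a comparison added after the cells per state were seen, it was −1.54 against −0.57, with 47 lower (35.9%) and 4 higher (9.34%). The 3 comparisons share the Gran-2 cells.

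Against well-detected genes the gap was smaller and kept its direction. In Myelo-2, 52 of 68 members (76.5%) were lower by at least 1, against 66.4% of the 1334 genes, with medians of −2.16 and −1.60. For Myelo-4 the share was 94.1% against 79%, with medians of −3.25 and −2.82, and for Myelo-1 64.7% against 51.9%, with −1.59 and −1.11. On the log2 ratio of mean TPM, the members' median was −1.07 in Myelo-2 (all kept genes −0.96), −1.78 in Myelo-4 (−2.10) and −0.37 in Myelo-1 (−1.09), so in Myelo-4 and Myelo-1 the members' median was nearer 0 than that of all kept genes on that scale. Of the 51 members that differed by at least 1 in either direction in Myelo-1, 10 had the opposite sign on that scale. The same was seen for 3 of 69 in Myelo-4 and 0 of 60 in Myelo-2. Without cells under 2000 genes, Myelo-2 kept 6 cells and a median of −1.58 over the members. In Myelo-4, 1 cell remained, and 15 of the 69 members lower by at least 1 had the opposite sign in it.

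Every complex had a median below 0, though not every one lay below the median of well-detected genes. The medians of Myelo-2 minus Gran-2 were −2.26 for complex I (29 of 36 lower by at least 1), −2.25 for II (4 of 4), −2.05 for III (6 of 8), −1.54 for IV (8 of 12) and −1.13 for V (11 of 17). For Myelo-4 they were −2.98 (34 of 36), −4.34 (4 of 4), −4.45 (8 of 8), −2.92 (11 of 12) and −2.40 (12 of 17). For Myelo-1 they were −2.05 (25 of 36), −0.40 (1 of 4), −1.33 (5 of 8), −1.24 (7 of 12) and −1.15 (9 of 17), so complex II differed least there. Over the 1334 well-detected genes the medians were −1.60 in Myelo-2, −2.82 in Myelo-4 and −1.11 in Myelo-1. Of those genes 66.4%, 79% and 51.9% were lower by at least 1, in the same order. Complexes IV and V in Myelo-2, V in Myelo-4 and II in Myelo-1 had medians above these. In all, 56 kept members were lower by at least 1 in both Myelo-2 and Myelo-4, as were 34.7% of all kept genes.

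**Figure D4:**
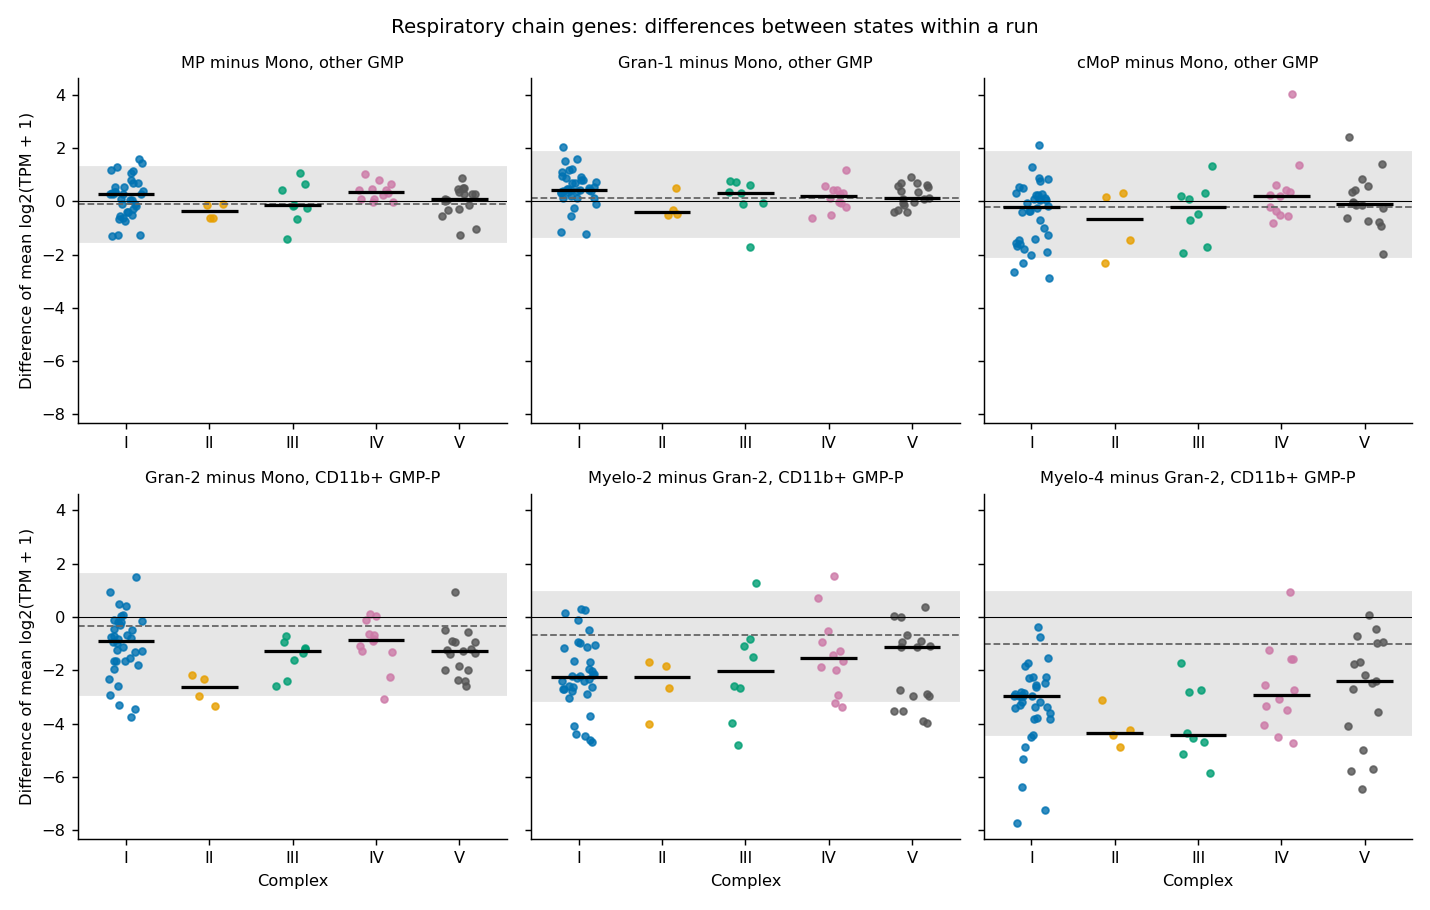
Differences of mean log2(TPM + 1) for the kept members (points, by complex on the horizontal axis) in 6 comparisons of states within a run. Black bars are complex medians, the dashed line is the median of all 8499 kept genes and the grey band their 5th to 95th percentile: members lie mostly below the dashed line in the panels of Gran-2 and the Myelo states and around it in the panels of the other GMP run.

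Among the complex I subunits, Ndufb5, an accessory subunit of the membrane arm, had the lowest Myelo-4 difference (−7.74). It spanned 7.48 to 9.53 in the 6 CD11b+ GMP-P Mono cells (median 8.44) and 0 to 10.59 in Gran-2 (median 8.34, detected in 12 of 13 cells, 92.3%, exact interval 64 to 99.8). Myelo-1 cells spanned 0 to 5.31 (median 0.96) and Myelo-2 cells 0 to 8.34 (median 1.66, detected in 6 of 11 cells, 54.5%, 23.4 to 83.3). It was not detected in any of the 7 Myelo-4 cells, which allows up to 42.9%. Within CD11b+ GMP-P, all Mono cells therefore lay above all Myelo-4 cells. Late July Myelo-2 cells held more than those of CD11b+ GMP-P, at 0 to 9.20 (median 6.69).

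Ndufa4 had the next lowest Myelo-4 difference (−7.23), although it was the most abundant complex I gene by name. In CD11b+ GMP-P it spanned 8.62 to 10.80 in Mono (median 9.60), 0 to 11.47 in Gran-2 (median 9.71) and from 4.89 upwards in Myelo-2 (median 8.85, all 11 cells). Myelo-4 cells spanned 0 to 5.77 (median 1.23, 4 of 7 detected). All Mono cells of this run lay above all its Myelo-4 cells, and its lowest Myelo-2 cell lay within the Myelo-4 range. Its paralog Ndufa4l2 was detected in no cell. Ndufa5, an accessory subunit of the matrix arm, was detected in 1 of 7 Myelo-4 cells, at 1.10, and differed by −6.39.

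Ndufs8, a core iron-sulfur subunit, spanned 0 to 10.11 in Gran-2 (median 6.97, 11 of 13 cells), 0 to 6.11 in Myelo-2 (median 0, 4 of 11) and 0 to 5.67 in Myelo-4 (median 0, 1 of 7). Ndufa9 spanned 6.26 to 9.37 in Mono (6 of 6), 0 to 9.10 in Gran-2 (9 of 13) and 0 to 3.55 in Myelo-2 (1 of 11), so all CD11b+ GMP-P Mono cells lay above all Myelo-2 cells. Late July Myelo-2 cells were higher, at 0 to 9.92 (median 8.24, 4 of 7). Ndufv1 was detected in 5 of 6 Mono, 8 of 13 Gran-2, 1 of 11 Myelo-2 and 0 of 7 Myelo-4 cells. For these genes the number of detecting cells differed along with the mean level.

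The complex I genes nearest to 0 in Myelo-4 minus Gran-2 were Ndufb4 (−0.36), Ndufs1 (−0.76), Ndufa3 (−1.55), Ndufa7 (−1.73) and Ndufa9 (−1.85). Ndufb4 was detected in 6 of 7 Myelo-4 cells (0 to 10.08, median 8.51), against 0 to 10.53 in Gran-2 (median 6.88), and the ranges overlapped. Ndufs1 and Ndufa9 were already low in Gran-2, where they were detected in 6 and 9 of 13 cells. Ndufb6 was higher in Myelo-1 than in Gran-2 by 1.67.

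Complex II is the citric acid cycle's succinate dehydrogenase. Within CD11b+ GMP-P, each of its 4 genes was detected in a smaller share of Myelo-4 than of Mono cells. Sdha was detected in 6 of 6 Mono cells (4.30 to 8.74, median 7.01), 9 of 13 Gran-2 (0 to 9.10, median 5.21), 3 of 11 Myelo-2 (0 to 8.0, median 0.19) and 1 of 7 Myelo-4 cells (highest 1.18). Sdhb, the iron-sulfur subunit, spanned 8.09 to 9.29 in Mono, 0 to 9.73 in Gran-2 (median 6.46), 0 to 9.68 in Myelo-2 (median 3.54) and 0 to 5.55 in Myelo-4 (median 1.21, detected in 4 of 7). Sdhc, a membrane anchor, spanned 5.60 to 8.75 in Mono and was detected in 0 of 7 Myelo-4 cells, none above 0.53. All Mono cells lay above all Myelo-4 cells for these 3 genes within this run. Other GMP Mono cells went down to 0 for each. In the 3 late July Myelo-4 cells, Sdhb was detected in 3 (6.89 to 7.97) and Sdhc in 2 (0 to 5.65). Sdha was detected in 1 of them (0 to 4.81), as was Sdhd (0 to 4.87). Sdhd, whose promoter is printed above with an NRF1 and an ETS core, spanned 7.67 to 10.29 in Mono, 0 to 9.72 in Gran-2 (median 8.15, 12 of 13), 0 to 6.72 in Myelo-2 (median 1.75, 7 of 11) and 0 to 8.76 in Myelo-4 (median 0, 2 of 7).

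In complex III, the order depended on the subunit. Uqcr10, a small subunit, had the lowest Myelo-2 difference of any member (−4.80), from 5.56 to 11.38 in Gran-2 (median 7.90, 13 of 13) to 0 to 8.0 in Myelo-2 (median 4.03). Late July Myelo-2 cells were at 2.64 to 8.94 (median 7.56). Uqcrb, in contrast, held in Myelo-2 (0 to 9.82, median 8.86, 10 of 11) beside Gran-2 (0 to 10.92, median 9.14) and was detected in 2 of 7 Myelo-4 cells (0 to 10.13, median 0). Uqcrc1, a core protein, went from a median of 8.68 in Gran-2 (0 to 10.13) to 1.06 in Myelo-2 (0 to 8.73). Uqcrfs1, the Rieske iron-sulfur protein that hands electrons on, was higher in Myelo-2 than in Gran-2 by 1.26, with medians of 4.85 (0 to 10.13) and 3.01 (0 to 8.05) and overlapping cells.

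In complex IV the abundant members were still detected in most Myelo-4 cells. Cox6a1 was detected in all 7 Myelo-4 cells (1.43 to 10.67, median 9.06) beside 6.29 to 11.39 in Gran-2 (median 10.07) and 8.93 to 11.08 in Mono (median 10.58). Cox4i1 spanned 7.81 to 11.14 in Gran-2 (median 9.77), 3.60 to 12.28 in Myelo-2 (median 6.99) and 0.90 to 11.41 in Myelo-4 (median 8.65, 6 of 7). Cox6c had medians of 8.63 (0 to 11.59), 6.68 (4.06 to 9.30) and 5.56 (0 to 9.29) in the same order. Ranges overlapped in each. Cox5b, which binds zinc, was higher in Myelo-1 than in Gran-2 by 2.09.

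Complex V genes differed widely in Myelo-4 minus Gran-2, from −6.46 (Atp5g2) to 0.06 (Atp5s). Atp5b, the catalytic beta subunit, spanned 8.59 to 10.62 in Mono (median 9.69) and 0.89 to 10.63 in Gran-2 (median 8.77). It spanned 0 to 8.43 in Myelo-2 (median 4.04) and 0 to 7.17 in Myelo-4 (median 0.46, 3 of 7). Within CD11b+ GMP-P, all Mono cells thus lay above all Myelo-2 and Myelo-4 cells. Atp5a1, the alpha subunit, had medians of 9.51, 8.80, 4.64 and 0.67, and in Myelo-1 its 5 cells kept 7.97 to 9.33 (median 8.20). Atp5c1, the rotor shaft, differed by −4.82 in Myelo-1. Stalk genes stood at both ends: Atp5h differed by −5.70 and Atp5o by −2.19, while Atp5f1 of the stator stalk spanned 0 to 9.97 in Myelo-4 (median 8.91, 6 of 7) and 1.33 to 10.16 in Gran-2 (median 8.43). Atp5j, another stalk subunit, had Myelo-4 and Gran-2 medians of 7.70 and 8.11, and Atp5e, a small subunit of the central stalk, differed by −0.44. These 3 genes overlapped Gran-2 over most of their range.

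The c subunit, of which a ring turns in the membrane as protons pass, differed unequally among its 3 genes. Atp5g1 spanned 7.40 to 9.76 in Mono (median 8.97), 0 to 9.17 in Gran-2 (median 8.23, 11 of 13), 0 to 9.36 in Myelo-2 (median 0, 4 of 11) and 0 to 8.22 in Myelo-4 (median 0, 3 of 7). Atp5g2 had medians of 9.09, 8.91, 5.88 and 0 and was detected in 8 of 11 Myelo-2 and 1 of 7 Myelo-4 cells. Atp5g3 had medians of 9.32, 7.26, 7.54 and 0.90 and was detected in 10 of 11 Myelo-2 and 3 of 7 Myelo-4 cells.

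As shares of the family's mean TPM, Atp5g1, Atp5g2 and Atp5g3 gave 31.1%, 33.8% and 35.1% in CD11b+ GMP-P Mono, 27.2%, 41.9% and 30.9% in Gran-2, and 14.2%, 26.4% and 59.4% in Myelo-2. The order did not hold between runs: in the 7 late July Myelo-2 cells Atp5g1 was detected in every cell (4.28 to 10.15, median 7.75) and Atp5g2 gave the smallest share, at 16.5%. The low Atp5g1 of CD11b+ GMP-P Myelo-2 was thus not seen in the same state of another run.

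**Figure D5:**
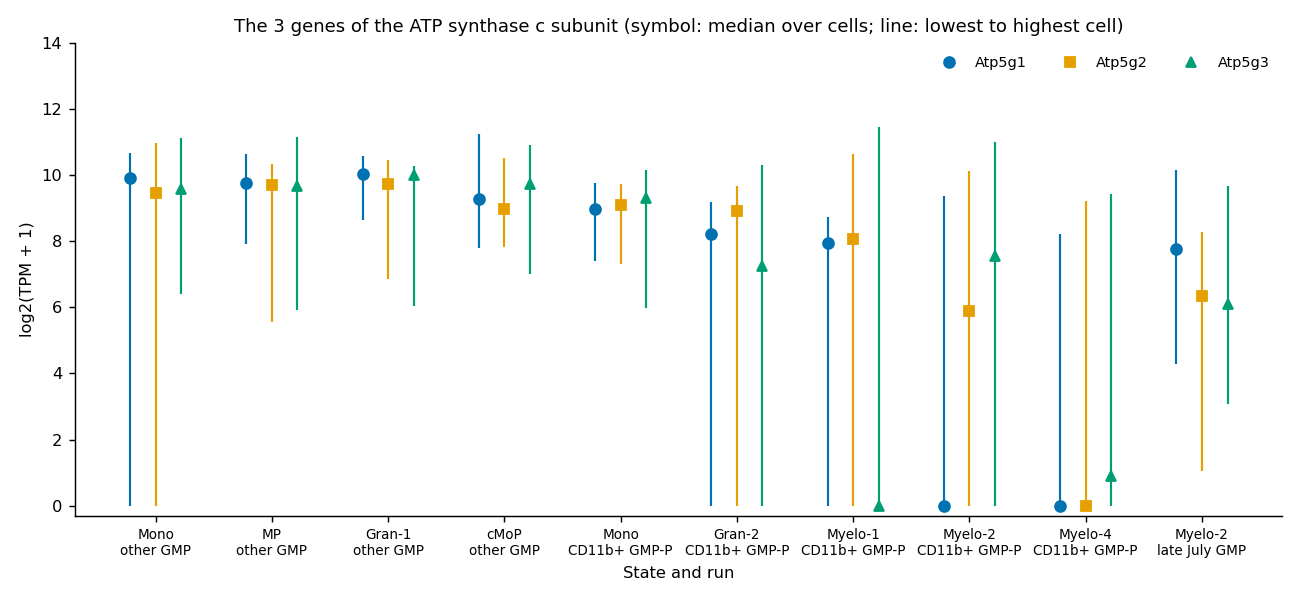
Level of the 3 c subunit genes, log2(TPM + 1) on the vertical axis, by state and run; symbols are medians over cells and lines run from the lowest to the highest cell. Atp5g1 has a median of 0 in CD11b+ GMP-P Myelo-2 and of 7.75 in late July GMP Myelo-2.

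Across Gran-2 minus Mono, Myelo-2 minus Gran-2 and Myelo-4 minus Gran-2, 60 of the 77 kept members were below 0 each time, as were 40.8% of all kept genes. The comparisons share cells, so the 3 signs are not independent. Markers moved as well. The summed TPM of the 9 granulocyte and Myelo genes taken as markers went from a median of 45694 in Mono (27997 to 73984) to 58365 in Gran-2 (33515 to 93208), 147191 in Myelo-2 (101209 to 254618) and 226967 in Myelo-4 (178794 to 235043). The 7 Mono and cMoP markers had medians of 1259 in Mono (567 to 3219) and 1.08 in Gran-2 (0 to 1648). Their medians were 14.3 in Myelo-2 (0 to 488) and 0.82 in Myelo-4 (0 to 82.4). The 4 MP and Multi-Lin markers had medians of 26839 in Mono (18187 to 48606), 20707 in Gran-2 (12987 to 42713), 448 in Myelo-2 (53.2 to 10402) and 72.6 in Myelo-4 (3.01 to 276), so they were lower where the members were. The T and NK markers, of which 1 gene was detected, had medians of 2251, 2872, 327 and 66.5 in the same order. In Myelo-1, the granulocyte and Myelo markers had a median of 85395 (15883 to 157022) and the Mono and cMoP markers 1.05 (0 to 1739). The MP and Multi-Lin markers had 7216 there (922 to 17676). The part of these markers in the results was not tested. Basophil and mast markers had medians of at most 0.70 and reached 1185 in Gran-2. Eosinophil markers were at 0 in every CD11b+ GMP-P cell, erythroid markers summed to at most 1.02 there, and B cell markers were at 0 in the Myelo states. Single GMP cells went higher: basophil and mast markers reached 27294 in the other GMP cells and erythroid markers 2783 in late July GMP. In other GMP Gran-1, eosinophil markers reached 427 and B cell markers 729.

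Within the other GMP run the states lay closer together, and complex I genes mostly lay above 0 in Gran-1. Gran-1 minus Mono had a median of 0.38 over the kept members and 0.11 over all kept genes. By at least 1, 7 members were higher, against 18.7% of all kept genes, and 3 lower, against 9.05%, so the count of large differences was below the background in each direction. In complex I, 31 of 36 members were above 0 (median 0.44). Of all kept genes, 54.9% were above 0. Complex II had a median of −0.40, III 0.33, IV 0.19 and V 0.12.

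Ndufv1 led, at 1.71 to 10.10 in the 9 Gran-1 cells (median 8.54, 9 of 9) and 0 to 8.92 in the 32 Mono cells (median 5.70, 22 of 32). Means were 6.76 ± 3.25 and 4.73 ± 3.43 (SD over cells), so the difference of 2.03 was within the spread between cells. Ndufv3 (1.59) and Ndufa8 (1.50) followed. Uqcrfs1 (−1.73), Ndufa10 (−1.24) and Ndufb7 (−1.17) were the lowest. Uqcrfs1 spanned 0 to 8.39 in Gran-1 (median 6.09) and 0 to 10.92 in Mono (median 7.86). Gran-1 cells had a median of 4860 genes and Mono cells 4671.5.

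MP minus Mono had a median of 0.10 against −0.12 over all kept genes, with 8 members higher by at least 1 (9.01% of all kept genes) and 6 lower (14.6%). Complex IV had 10 of 12 members above 0 (median 0.35) and complex II 0 of 4 (median −0.38), and of all kept genes 43.3% were above 0. Ndufv1 (1.60), Ndufs1 (1.45) and Ndufa1 (1.28) were highest, and Uqcrfs1 (−1.41), Ndufs5 (−1.29) and Atp5s (−1.28) lowest. Ndufa1 spanned 7.82 to 10.94 in MP and 0 to 10.80 in Mono.

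cMoP minus Mono rests on 5 cMoP cells. It had a median of −0.12 against −0.21 over all kept genes, with 18 members lower by at least 1 (22.6%) and 7 higher (15.4%). Ndufb11 (−2.86), Ndufv1 (−2.65) and Ndufb3 (−2.32) were lowest, and Cox6b2 (4.02), Atp5s (2.41) and Ndufa9 (2.12) highest. The Ndufb11 value turns on 1 cell without it: 4 of 5 cMoP cells detected it, with a median of 8.53 against 9.05 in Mono. Over the 3 comparisons of this run, which share the Mono cells, 18 members were above 0 each time (13.8% of all kept genes) and 13 below (18.9%). Counting both runs, 23 members had 1 sign in the 3 comparisons of each run. Among them were Sdha and Sdhd, Uqcrb and Uqcr11, Cox6b1, Cox6c, Cox7a2 and Cox8a, and Atp5b, Atp5e, Atp5f1, Atp5g2 and Atp5l. That count was not made over all kept genes, so it is not read as a trait of the members.

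CD11b+ GMP-P was compared with GMP as the labels divide the cells. Members were lower in CD11b+ GMP-P than in the pooled GMP cells, but not against the late July GMP cells. Against all GMP the median was −2.11 over the kept members and −0.61 over all kept genes. By at least 1, 73 members were lower, against 31% of all kept genes, and 0 higher, against 2.44%. Among genes detected in at least 70% of cells, 67 of 68 members (98.5%) were lower by at least 1, against 65%. Ndufs8 (−3.57), Atp5g1 (−3.54) and Ndufb2 (−3.23) were lowest, and Atp5sl (−0.37), Atp5s (−0.61), Ndufs1 (−0.80) and Atp5f1 (−0.82) came closest to 0. On the log2 ratio of mean TPM the members' median was −0.95. The median of all kept genes on that scale is not given here, so this value is not read against it.

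Within GMP, the runs differed as much as the populations did. CD11b+ GMP-P minus other GMP had a median of −2.60 (all kept genes −0.76), with 75 members lower by at least 1 (39.5%) and 0 higher (2.89%). Late July GMP minus other GMP had −2.64 (−0.95), with 75 lower (48.2%) and 0 higher (3.84%). CD11b+ GMP-P minus late July GMP had 0.15 (0.20), with 8 lower (5.39%) and 11 higher (12%). These comparisons share cells. Uqcrc1 differed by −5.66, Sdhd by −5.30 and Ndufa12 by −5.15 between late July and other GMP, and Uqcrc1 (3.06), Sdhd (2.94) and Atp5d (2.22) were the highest of CD11b+ GMP-P against late July GMP. Ndufa4 (−1.91), Ndufs6 (−1.62) and Atp5g1 (−1.62) were the lowest there.

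The runs hold different states, so the same state was set side by side. Mono cells of CD11b+ GMP-P (6) and of the other GMP run (32) differed by a median of −0.26 over the kept members (all kept genes −0.14), with 16 lower by at least 1 (20%) and 8 higher (18.2%). Their genes detected were near (medians 4434 and 4671.5). In mean log2(TPM + 1), all 4 complex II genes were higher in the CD11b+ GMP-P Mono cells (median 0.99; 45.3% of all kept genes were above 0), led by Sdhc (1.52). Sdhb was not higher in mean TPM, at 421 against 459 in other GMP Mono, where 30 of 32 cells detected it. Its medians were 8.53 and 8.46. For Sdha, Sdhc and Sdhd mean TPM was 185, 208 and 709 against 163, 140 and 523. Cells of the groups overlapped for each gene. Complexes I, III, IV and V had medians of −0.37, −0.40, −0.62 and −0.22. Ndufv1 (1.63) and Ndufs1 (1.56) were also higher, and Ndufv2 (−2.38), Ndufv3 (−2.21) and Ndufb7 (−1.94) lowest. Core subunits of 1 module, Ndufv1 and Ndufv2, thus differed in opposite directions.

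Of the 10 most abundant members, 9 were lower in the CD11b+ GMP-P Mono cells and Cox4i1 was not (0.13). Of all kept genes, 45.3% were above 0 in this comparison. Cox6a1 spanned 8.93 to 11.08 there (median 10.58) and 7.14 to 12.37 in other GMP Mono (median 11.22), with mean levels of 1486 and 2329 TPM. For Ndufa4 the medians were 9.60 and 10.41, and for Cox4i1 the mean levels were 1672 and 1531 TPM. Cells of the groups overlapped for all 3. On the log2 ratio of mean TPM the members' median was −0.65, with that of all kept genes not given here. Run and population cannot be told apart here.

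Myelo-2 cells of CD11b+ GMP-P (11) and late July GMP (7) differed by a median of −0.38 (all kept genes −0.06), with 27 lower by at least 1 (19.4%) and 7 higher (9.93%). Ndufa9 (−4.95), Atp5g1 (−4.35) and Uqcr10 (−3.95) were lowest, and Ndufs5 (2.17), Ndufb4 (1.95) and Uqcrb (1.62) highest. Among genes detected in at least 70% of cells the medians were −0.40 over the members and −0.46 over all. Without cells of few genes and under other scales this median ran from −0.83 to 0.04.

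Isoform pairs of complex IV were nearly all of the ubiquitous type. Cox4i1 made up 99.3% of the Cox4i mean TPM in the other GMP cells and 100% in CD11b+ GMP-P. Cox6b2 was seen more often than the other tissue-restricted forms. It was detected in 34 cells, of which 27 were among the 62 other GMP cells, 6 among the 46 CD11b+ GMP-P and 1 among the 13 late July cells.

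By state Cox6b2 was detected in 4 of 5 cMoP (80%, 28.4 to 99.5), 5 of 9 Gran-1 (55.6%, 21.2 to 86.3), 11 of 32 other GMP Mono (34.4%, 18.6 to 53.2) and 3 of 11 MP cells, and in 1 of 13 Gran-2 cells of CD11b+ GMP-P. The cMoP cells spanned 0 to 8.57 (median 6.48) and Mono cells 0 to 7.57 (median 0), and the intervals of these states overlap. Cox6b1 remained the main form: in the other GMP cells it averaged 875 TPM against 50.5 for Cox6b2 and gave 94.5% of the total, and in cMoP Cox6b2 gave 14.9%. Its share was larger in CD11b+ GMP-P Myelo-2 (21.9%) and Myelo-4 (34.7%), where it rests on 2 of 11 and 1 of 7 cells and Cox6b1 averaged 177 and 63.8 TPM.

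Cox7a2 and Cox7a2l had different orders between states. In the other GMP cells Cox7a2 gave 65.4% of the Cox7a mean TPM and Cox7a2l 34.3%, and in Myelo-2 Cox7a2l gave 56.5% in CD11b+ GMP-P and 60.9% in late July GMP. Myelo-2 was not alone in this, as Cox7a2l gave 56.3% in other GMP cMoP and 46.6% in CD11b+ GMP-P Mono. By mean log2(TPM + 1), Cox7a2 stayed above Cox7a2l in Myelo-2 (6.05 against 5.23 in CD11b+ GMP-P, 6.28 against 5.14 in late July GMP). Cox7a2l spanned 0 to 9.46 in Gran-2 (median 0.91, 6 of 13), 0 to 9.80 in Myelo-2 (median 6.95, 8 of 11) and was detected in 0 of 7 Myelo-4 cells. Its Myelo-2 minus Gran-2 difference of 1.54 was the highest of any member, with overlapping cells.

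Other mitochondrial genes were counted from lists that the symbol rule does not touch. Electron carriers and chain subunits under other names (10 kept) differed by a median of −1.95 between CD11b+ GMP-P and GMP, with 9 lower by at least 1, beside 31% of all kept genes. In that list Cyc1, cytochrome c1 of complex III, differed by −3.07, Cycs, cytochrome c, by −1.35, and Usmg5, a small ATP synthase subunit, by −3.51. Citric acid cycle genes (16) had −1.52 with 15 lower, mitochondrial import genes (23) −2.32 with 23 lower, and mitochondrial ribosomal genes (77) −1.61 with 65 lower. Assembly factors of the chain (38) had −0.84 with 16 lower, nearer that 31%. Among the 1334 well-detected genes, 65% were lower by at least 1, with a median of −1.42. The lists were not matched for level or detection, whose part in these differences was not tested. Glycolysis genes (18) had −0.17 with 3 lower, a smaller share than that of all kept genes, and none of these lists had a gene higher by at least 1.

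Within CD11b+ GMP-P, glycolysis genes had smaller differences than the chain's members. For Myelo-4 minus Gran-2 its median was −1.19, with 10 of 18 lower by at least 1 and 1 higher, near the 50.1% and 4.6% of all kept genes. The medians were −2.43 for the citric acid cycle, −3.87 for carriers, −1.13 for assembly factors and −4.24 for cytosolic ribosomal genes (85 of 89 lower by at least 1, a list taken by symbol that also holds the kinase gene Rps6ka1), while all kept genes stood at −1.0. The 1334 well-detected genes stood at −2.82. As a share of TPM without the 20 most abundant genes, glycolysis had medians of 1.74% in CD11b+ GMP-P Mono, 1.75% in Myelo-2 and 1.74% in Myelo-4, where the chain went from 3.70% to 2.49%. Between CD11b+ GMP-P and GMP, Gapdh differed by −0.09, Ldha by 0.08, Pkm by 0.50 and Eno1 by 0.75. In Gran-1 minus Mono of the other GMP run, glycolysis genes had a median of 0.79, with Hk3 (1.94), a hexokinase of myeloid cells, and Pfkp (1.89) highest, and citric acid cycle genes 0.64, with Idh3b (1.88) highest.

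Regulators of mitochondrial genes were mostly low (12 kept of 14 listed). Their median difference between CD11b+ GMP-P and GMP was −0.57, with 2 lower by at least 1: Myc (−3.22), a growth regulator known to drive mitochondrial biogenesis, and Tfam (−1.43), which packages and transcribes mitochondrial DNA. Nrf1 differed by 0.31, Gabpa, the ETS factor tied to respiratory genes, by 0.08, Yy1 by −0.49 and Esrra by −0.20. Within CD11b+ GMP-P, Myc was higher in Gran-2 than in Mono by 2.05, where the members were lower, and its Myelo-2 minus Gran-2 difference was −3.59. Myc in CD11b+ GMP-P Mono differed from that in other GMP Mono by −4.44.

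Across the 46 CD11b+ GMP-P cells, the chain's share of TPM went with that of cytosolic ribosomal genes (Pearson r 0.95, Spearman rho 0.94), against the share of the 20 most abundant genes (−0.82 and −0.80) and with genes detected (0.70 and 0.69). With the 20 genes left out of the total, r with ribosomal genes was 0.75 and with genes detected 0.42, and with glycolysis it went from 0.56 to 0.06. Across the 62 other GMP cells r was 0.13 with ribosomal genes, 0.21 with genes detected and 0.10 with glycolysis. These are descriptions over cells of 1 run that differ in genes detected, and shares of 1 total are not independent of each other.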

How the data were processed

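Single-cell RNA was measured in 121 cells. Per the submitters' processing notes Bowtie2, RSEM and the mm9 build were used, with versions not given in the sources used here. The authors deposited log2 values, whose back-transformed sums per cell (999517 and up) are those of TPM, and 81.7% are 0. A second deposited table by the authors names 12 states. Depth is unknown.

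Groups come from the labels and the deposited state names. Differences are of mean log2(TPM + 1), a scale that understates differences of low genes, over genes detected (TPM of at least 1) in at least 10% of cells, and a difference of 1 was the size counted. States needed 5 cells in a run. Each group is 1 sample, so no test was made. Intervals are exact (Clopper-Pearson, 95%) and limits for 0 are 3 cells of the total, both for counting error only. Alternatives were other pseudocounts (0.1, 10), filters, scalings and summaries, and leaving out cells under 2000 genes. Transcript lengths are the longest protein-coding ones of GENCODE vM21. Named members are the highest 3 and the lowest by level in each complex, the 3 lowest and 3 highest differences in each comparison, those of 1 sign within runs, and isoform families. Others (Ndufa5, Ndufa7, Atp5o and further members given with values) were named after their values were seen. The members, lists and filter of 70% were chosen with earlier results of these data known. For 1 complex I member, which is counted in the totals, values of its own are not reported here. The calculation was tested on simulated data. Python 3.11.15, numpy 2.4.6, pandas 2.3.3, scipy 1.17.1 and matplotlib 3.10.9 were used.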

Additional observations from a re-analysis of the deposited data

Results flagged for a closer look

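In 36 sets (6 states and runs of 5 to 9 cells, each for the share of TPM in the chain and in its 5 complexes), the highest and lowest cell were checked by the gap to the nearest other cell, and chance marks about 1 in 20. A single cell stood apart in 3. In CD11b+ GMP-P Mono (6 cells), the lowest cell had 0.802% of its TPM in complex I and the next 0.981%. In Myelo-1 (5 cells), the highest cell had 0.920% in complex V and the next 0.580%. In Myelo-4 (7 cells), the highest cell had 0.0478% in complex II and the next 0.00841%.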

How the results depend on the processing

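No paired analysis was possible because the result comes from no test and cell numbers only name cells. No median past a difference of 1 changed its sign. The median over members ran from −2.66 to −0.95 for CD11b+ GMP-P minus GMP, and for Myelo-4 minus Gran-2 from −4.79 to −1.78. With the log2 ratio of mean TPM it was −0.95 for CD11b+ GMP-P minus GMP, −1.12 against other GMP and −1.31 for late July minus other GMP. With log2(TPM + 10), CD11b+ GMP-P minus other GMP was −1.84. With the median over cells, Myelo-4 minus Gran-2 was −4.79. Without the 20 most abundant genes the chain's share was 3.30% for late July GMP, 3.19% for all CD11b+ GMP-P cells, 5.01% in other GMP Gran-1, 3.70% in CD11b+ GMP-P Mono, 3.44% in Gran-2, 3.52% in Myelo-1, 2.43% in Myelo-2, 2.49% in Myelo-4 and 3.03% in late July Myelo-2. Detection at a TPM of 5 gave a median of 72 members in MP and 73 in Gran-1. Without cells of few genes, Myelo-4 had 45. Of these results, 165 values under alternatives stayed within the spread and 17 moved. The spread was the SD over the kept members for differences, and the SD over cells for shares and detection. The causes were not tested. Low members are limited by unknown depth: a 0 can be a missed transcript. Each group is 1 sample of 5 to 75 cells.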

Other observations

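Cells of states too small to compare gave these shares of TPM in the chain. The 3 Gran-1 cells of CD11b+ GMP-P had 1.50%, 3.19% and 3.67%, and the 2 of late July GMP had 2.77% and 3.95%. The 3 late July Myelo-4 cells had 1.03%, 1.36% and 1.59%, near the CD11b+ GMP-P Myelo-4 range. In the other GMP run, the 1 MDP cell had 5.96%, the 2 Multi-Lin cells 3.65% and 3.97%, the 1 Gran-2 cell 4.32% and the 1 HSCP-1 cell 2.79%. The 1 Gran-2 cell of late July GMP had 2.06% and the 1 Myelo-3 cell 2.04%.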
